A study of Mus musculus with 21 samples.

Results

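In all, 8 genes of the podocyte lineage were followed through 7 groups of mouse nephron progenitor cultures: Foxc1, Foxc2, Synpo, Ptpro, Clic5, Podxl, Nphs1 and Cd2ap. They were chosen by name, with earlier results of these data known, and are 8 of the 18193 genes that the arrays name. Every one of their probe sets was kept, 17 of 45101. Signal reached background in at least 1 group for 14 of the 17. The other 3, Synpo 1427045_at, Ptpro 1425863_a_at and Clic5 1431261_at, stayed below it in every group, where background is a signal of 41.8, the value that 95% of 27 Bacillus control probe sets stayed under.

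The cells were progenitors of E16.5 kidneys on a mixed background, carrying a bacterial artificial chromosome transgene, Six2GFPcre, and isolated by sorting for its GFP. All groups carry that transgene, and 40000 cells made up a sample. Some cells were pelleted into aggregates and others were left dispersed, in medium with 10% serum. BIO blocks GSK3, the kinase that marks beta-catenin for destruction, and was given at 4 µM, against an equal volume of the solvent DMSO. The groups, of 3 arrays each, were aggregates after 24 h of BIO or of DMSO, dispersed cells after 24 h of BIO or of DMSO, aggregates after 24 h of BIO and 24 h more of DMSO (BIO removed) or of BIO (BIO kept), and freshly sorted cells with no culture. Aggregates kept for 48 h in DMSO alone are not among these groups, so a 48 h group set against a 24 h group differs in time as well. The labels call the arrays biological replicates without naming litters or sorts, so p-values cover the array-to-array spread alone, and that may be technical. Sorted populations were profiled in bulk, in which fewer cells of a type and less RNA per cell cannot be told apart. All 8 listed nephron progenitor markers lay above background in fresh cells.

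Podocytes are the epithelial cells that wrap the capillaries of the glomerulus. Their foot processes interlock and are bridged by the slit diaphragm, a junction that forms the last layer of the filter. They arise from nephron progenitors that pass through the renal vesicle, and canonical Wnt signalling through beta-catenin starts that passage. Foxc1 and Foxc2 are forkhead transcription factors of the podocyte programme that are also made in embryonic mesenchyme. Synpo (synaptopodin) binds actin in foot processes, and Clic5 sits with the linker protein ezrin beneath the podocyte membrane. Podxl (podocalyxin) is the charged sialomucin of the podocyte surface and Ptpro a receptor tyrosine phosphatase of the same surface. Nphs1 (nephrin) builds the slit diaphragm, and Cd2ap is the adaptor that ties nephrin to actin.

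In GRCm38.p6 coordinates of RefSeq, Foxc1 lies at chr13:31806646-31810635, Foxc2 at chr8:121116171-121118895, Ptpro at chr6:137252299-137464634, Clic5 at chr17:44134762-44280169, Podxl at chr6:31519493-31563937, Nphs1 at chr7:30458207-30488623 and Cd2ap at chr17:42748887-42876707. The probe sets' positions within the genes were not used here. A promoter window of 300 bases, 250 before and 50 after the start, was held by the RefSeq table for 5 of the 8, Foxc1, Ptpro, Clic5, Nphs1 and Cd2ap. Upstream sequence is shown for the 3 of these 5 whose signal fell with BIO and returned when it was removed on every probe set above background, 5′ to 3′ on the plus strand. They are chr13:31806396-31806645 for Foxc1, chr6:137252049-137252298 for Ptpro and chr17:44188322-44188571 for Clic5, the last inside the annotated span of the gene. Lower case is used throughout because the windows hold neither motif searched.
Foxc1: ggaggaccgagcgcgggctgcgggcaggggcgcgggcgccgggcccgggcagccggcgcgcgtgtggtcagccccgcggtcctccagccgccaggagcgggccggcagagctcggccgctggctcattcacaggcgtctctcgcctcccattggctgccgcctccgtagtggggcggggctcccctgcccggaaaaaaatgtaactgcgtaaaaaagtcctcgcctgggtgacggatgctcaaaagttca
Ptpro: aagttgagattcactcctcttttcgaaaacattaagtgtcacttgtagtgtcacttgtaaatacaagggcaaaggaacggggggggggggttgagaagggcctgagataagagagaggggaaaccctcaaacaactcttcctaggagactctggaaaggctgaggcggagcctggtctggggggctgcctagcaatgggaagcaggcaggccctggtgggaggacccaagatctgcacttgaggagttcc
Clic5: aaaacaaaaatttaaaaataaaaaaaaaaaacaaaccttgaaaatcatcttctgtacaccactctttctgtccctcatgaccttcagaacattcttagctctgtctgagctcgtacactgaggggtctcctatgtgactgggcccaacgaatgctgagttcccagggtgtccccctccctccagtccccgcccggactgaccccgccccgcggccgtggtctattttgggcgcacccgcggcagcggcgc
The motifs were the TCF/LEF core CTTTGAT, bound by the partners of beta-catenin, and the forkhead core GTAAACA, each on both strands and over the full 300 bases. Neither was found in the 5 member windows (0 of 5), against 3.7% of all 32851 windows for TCF/LEF and 3.6% for forkhead, so these letters are simply not in these windows. GC content of the 250 upstream bases was 70.8% for Foxc1, 53.6% for Ptpro and 52.8% for Clic5.

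Both Foxc genes, Synpo, Ptpro and Clic5 were lower with BIO than with DMSO, in aggregates and in dispersed cells alike, and higher where BIO had been removed than where it was kept. Podxl and Nphs1 passed the test in none of these 3 comparisons, and Cd2ap passed on 1 of its 3 probe sets with smaller differences. In aggregates 9 of the 17 probe sets were lower with BIO and 0 were higher, against 8.93% of all 45037 probe sets lower and 10.6% higher. In dispersed cells 9 were lower and 0 higher, against 8.86% and 9.65% of all probe sets. After removal of BIO 9 were higher and 0 lower than with BIO kept, against 6.25% of all probe sets higher and 6.34% lower. The same 9 probe sets, of 6 genes, made up each count. Because the genes were chosen with earlier results of these data known, the counts describe them and are no independent support. These 3 comparisons share no array, but the joint fit gives their tests 1 common residual spread per probe set. Calls are at an adjusted p under 0.05 in limma, fitted over all arrays on the log2(signal + 1) scale and adjusted by Benjamini-Hochberg over 45037 probe sets. The median log2 difference of the 17 probe sets was -0.87 for BIO in aggregates, -0.55 for dispersed cells with BIO and 0.42 for removal, beside 0.05, 0.03 and -0.03 over all probe sets. In aggregates 54.2% of all calls were higher with BIO after quantile normalization, and 43.8% with the deposited scaling.

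**Figure D1:**
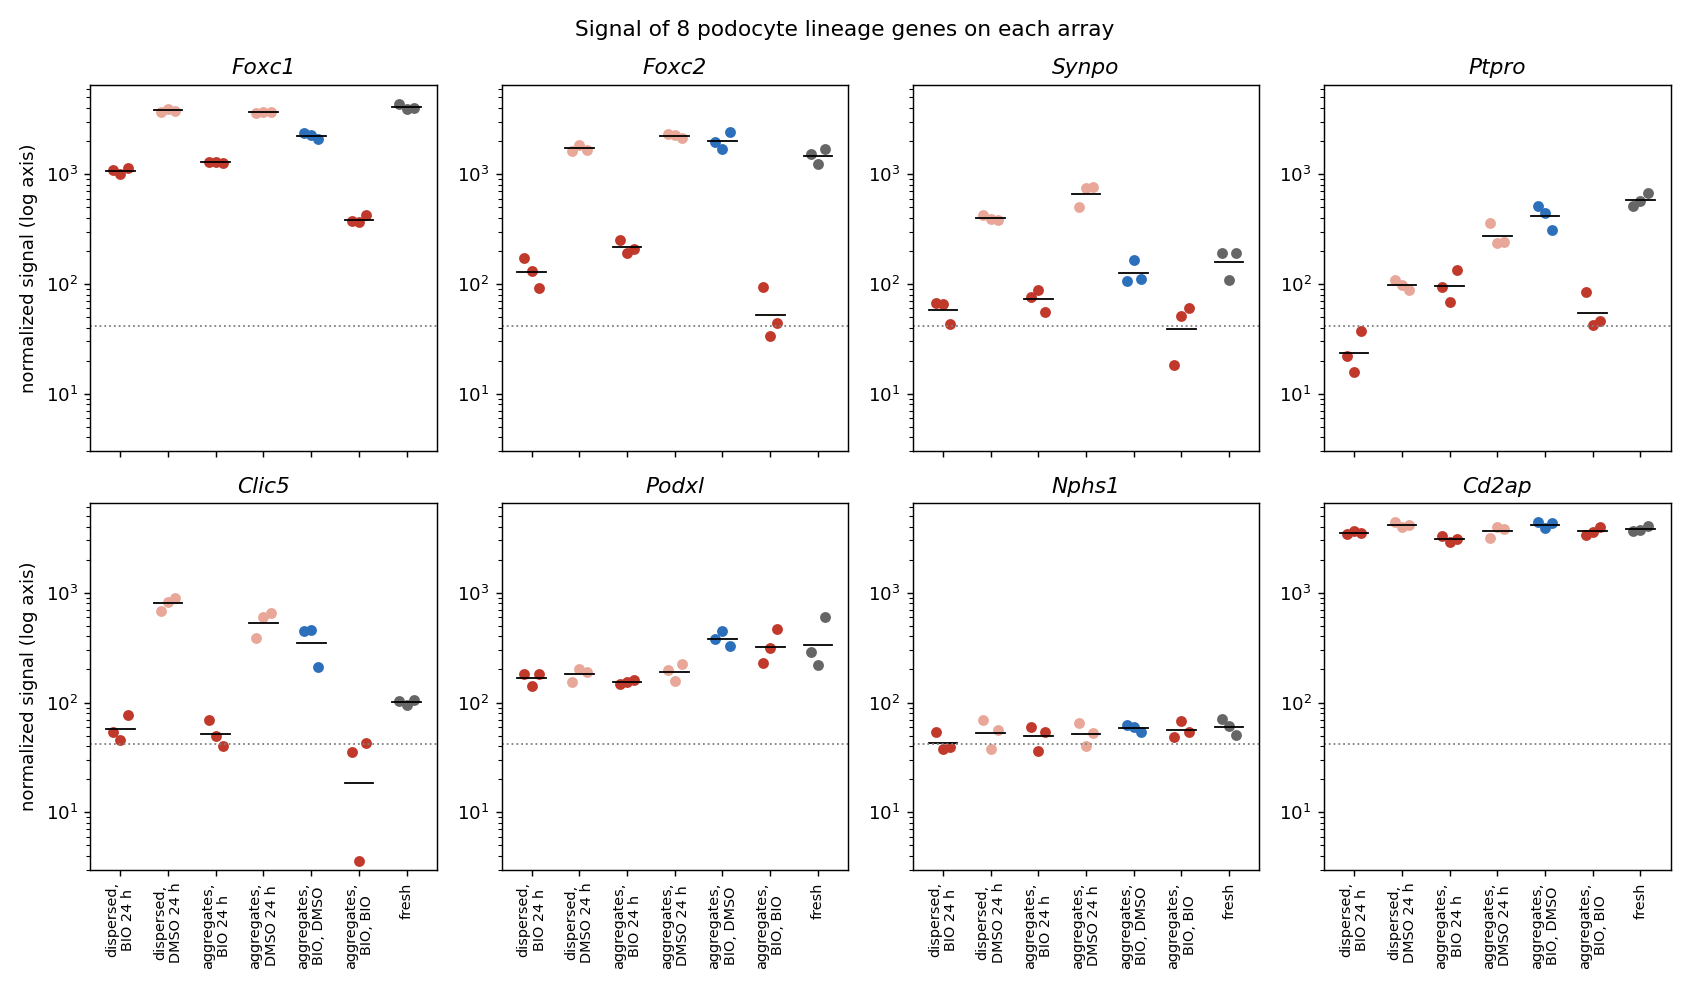
Normalized signal (log axis) of the representative probe set of each gene on all 21 arrays, with groups along the x axis, 1 point per array and black lines for group means on the log2 scale; the dotted line is background, a signal of 41.8. Red points had BIO to the end, pale points DMSO for 24 h, blue points BIO for 24 h and then DMSO, and grey points are fresh cells. Foxc1, Foxc2, Synpo, Ptpro and Clic5 are low wherever the culture ended in BIO, while Nphs1 stays near background and Cd2ap high in every group. Ptpro in dispersed DMSO cells overlaps BIO aggregates.

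Foxc1 was measured by a pair of probe sets that moved together. Its signal on 1419486_at was 1293, 1299 and 1267 in BIO aggregates, against 3637, 3723 and 3713 in DMSO aggregates. In dispersed cells it was 1101, 996 and 1133 with BIO and 3691, 3961 and 3791 with DMSO. After 48 h it was 2388, 2287 and 2078 with BIO removed and 375, 365 and 421 with BIO kept. Each pair of groups was clear of overlap, and the BIO-kept aggregates were the lowest group of all. The log2 difference (± SE, n = 3 arrays per group) was -1.52 ± 0.09 for BIO in aggregates (adjusted p = 6.62e-09), -1.83 ± 0.09 in dispersed cells (adjusted p = 6.84e-10) and 2.54 ± 0.09 for removal (adjusted p = 5.73e-11). On 1419485_at these differences were -1.59, -1.85 and 2.33. Fresh cells had 4385, 3932 and 3976 on 1419486_at, which overlapped dispersed DMSO cells, and those overlapped DMSO aggregates in turn.

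Foxc2 had a single probe set, 1416693_at, which gave 1970, 1706 and 2445 with BIO removed and 93.7, 33.5 and 44.1 with BIO kept, a 38.2-fold difference (log2 5.26 ± 0.29, adjusted p = 5.74e-09). At 24 h it gave 250, 191 and 210 in BIO aggregates and 2329, 2270 and 2137 in DMSO aggregates, a log2 difference of -3.37 ± 0.29 (adjusted p = 4.23e-07). Dispersed cells had 171, 131 and 92.4 with BIO and 1641, 1856 and 1668 with DMSO, a log2 difference of -3.74 ± 0.29 (adjusted p = 1.09e-07). Every BIO array lay below every array of its DMSO group, and 1 of the 3 BIO-kept arrays was below background. In fresh cells the signal was 1536, 1233 and 1707, overlapping dispersed DMSO cells.

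Synpo, the actin-binding protein, was read from 1434089_at, since its other probe set lay below background throughout. It gave 76.3, 87.9 and 56.2 in BIO aggregates and 506, 749 and 757 in DMSO aggregates, a log2 difference of -3.17 ± 0.36 (adjusted p = 9.00e-06). In dispersed cells it was 67.6, 65.9 and 43.6 with BIO and 424, 394 and 383 with DMSO, a log2 difference of -2.77 ± 0.36 (adjusted p = 3.51e-05). Its return after removal was partial: 107, 164 and 111 with BIO removed lay above the 18.4, 51.2 and 60.9 of BIO kept, at least 2.43-fold higher (adjusted p = 0.00532), and below all DMSO aggregates at 24 h. The kept group's mean was below background, so the fold is a bound, with arrays below background raised to it. Fresh cells gave 193, 110 and 190 and overlapped the BIO-removed aggregates. With the Gapdh 3′ to 5′ ratio as a covariate the removal difference was 1.29 with an adjusted p of 0.081, and with a fit on the 6 arrays compared its adjusted p was 0.136.

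Clic5 had 3 probe sets above background, and all 3 were lower with BIO and higher after its removal. On 1456873_at the signal was 69.7, 49.4 and 40.1 in BIO aggregates and 390, 598 and 650 in DMSO aggregates (log2 difference -3.34 ± 0.60, adjusted p = 0.000704). With dispersed cells it was 54.0, 45.4 and 77.4 under BIO and 686, 830 and 895 under DMSO (log2 difference -3.77 ± 0.60, adjusted p = 0.000232). Removal of BIO gave 447, 455 and 212, against 35.6, 3.63 and 42.6 with BIO kept, at least 8.16-fold higher (adjusted p = 0.000137). BIO-kept aggregates sat around or below background, 1 of them far below. Fresh cells had 104, 93.9 and 105, between the BIO and DMSO groups. On 1439505_at the means of all 3 BIO groups lay below background, so its folds are bounds, at least 2.95-fold lower with BIO in aggregates, at least 4.09-fold lower in dispersed cells and at least 2.00-fold higher after removal. The log2 differences of 1458381_at were -0.87 and -1.50 for BIO, with a 2.01-fold rise after removal. Without DMSO aggregate replicate 3, the 1458381_at difference in aggregates was -0.68 with an adjusted p of 0.051. Fitted on the 6 arrays of that comparison alone, its adjusted p was 0.131. In a fit on the 6 arrays compared, the adjusted p of the removal difference of 1456873_at was 0.0729, and with the Gapdh ratio as a covariate that of 1458381_at was 0.105.

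Ptpro, the surface phosphatase, was highest in fresh cells. On 1417676_a_at these gave 514, 566 and 670. BIO aggregates had 93.5, 67.9 and 134, against 359, 234 and 243 in DMSO aggregates, a log2 difference of -1.52 ± 0.32 (adjusted p = 0.003). Dispersed cells had 22.3, 15.9 and 37.2 with BIO, all below background, against 108, 98.3 and 87.3 with DMSO, at least 2.30-fold lower (adjusted p = 0.000293). Removal of BIO gave 511, 443 and 310, against 83.9, 42.8 and 45.9 with BIO kept, a 7.40-fold difference (log2 2.89 ± 0.32, adjusted p = 1.16e-05). In both culture formats, and after removal, the groups did not overlap. Across formats they did: dispersed DMSO cells, at 87.3 to 108, lay within the 67.9 to 134 of BIO aggregates.

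Podxl, the surface sialomucin, was called in none of the 3 comparisons, and its pair of probe sets disagreed. On 1448688_at the signal was 146, 154 and 160 in BIO aggregates and 197, 158 and 225 in DMSO aggregates, and 377, 448 and 325 with BIO removed against 228, 313 and 467 with BIO kept. These groups overlapped at 1 or more arrays. The log2 difference was -0.32 with a 95% interval of -0.97 to 0.33 for BIO in aggregates, -0.11 (-0.75 to 0.54) in dispersed cells and 0.24 (-0.41 to 0.89) for removal. On 1417396_at the differences were -0.34, -0.53 and -0.67 with adjusted p-values of 0.41, 0.18 and 0.104, so the sign for removal was opposite between the probe sets. Although not called, its groups did not overlap in dispersed cells, at 86.8 to 134 with BIO and 137 to 167 with DMSO. Nor did they for removal, at 91.1 to 142 with BIO removed and 148 to 208 with BIO kept.

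Nphs1, which encodes nephrin, stayed close to background. Its probe set 1422142_at ranged over 36.4 to 71.2 on the 21 arrays, and all 7 groups overlapped their neighbours in the order of means. The log2 difference was -0.07 (95% interval -0.59 to 0.45) for BIO in aggregates, -0.29 (-0.82 to 0.23) in dispersed cells and 0.06 (-0.46 to 0.58) for removal. Differences within those intervals are compatible with these arrays, and a signal this near background limits what could be detected.

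Cd2ap, the adaptor of the slit diaphragm, was well above background in every group. On 1420907_at the signal was 3262, 2915 and 3066 in BIO aggregates and 3174, 3956 and 3766 in DMSO aggregates, and 3398, 3646 and 3470 in dispersed BIO cells and 4422, 3942 and 4127 in dispersed DMSO cells. The log2 differences of -0.23 and -0.25 had adjusted p-values of 0.144 and 0.122. With the deposited scaling they were -0.37 and -0.33, and both passed, with adjusted p-values of 0.0193 and 0.0369. Of the other probe sets, 1420906_at was called lower with BIO in aggregates (-0.66 ± 0.13, adjusted p = 0.00155) and in dispersed cells (-0.55 ± 0.13, adjusted p = 0.00593). In a fit on the 6 arrays compared neither passed, with adjusted p-values of 0.0593 and 0.0701. Its removal difference was 0.42 ± 0.13 (adjusted p = 0.0466), a call that was lost when any 1 of the 6 arrays compared was left out, with adjusted p-values of 0.0523 to 0.136. The third probe set, 1420908_at, gave 297, 268 and 422 in BIO aggregates and 937, 955 and 434 in DMSO aggregates, a log2 difference of -1.18 ± 0.41 (adjusted p = 0.0539). It passed with the deposited scaling (adjusted p = 0.0290), with arrays centred on their medians (0.0286), with the Gapdh ratio as a covariate (0.0150) and without DMSO aggregate replicate 3, the array with 434, where it was -1.55 (adjusted p = 0.0173). A filter on dim probe sets, a robust variance trend and log2(signal + 16) also let it pass, with adjusted p-values of 0.0403, 0.0256 and 0.0479. In dispersed cells 1420908_at was not called, and its groups overlapped, at 988 to 1368 with BIO and 1163 to 1231 with DMSO. For removal it was not called either, at 858 to 1293 with BIO removed and 555 to 1653 with BIO kept.

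**Figure D2:**
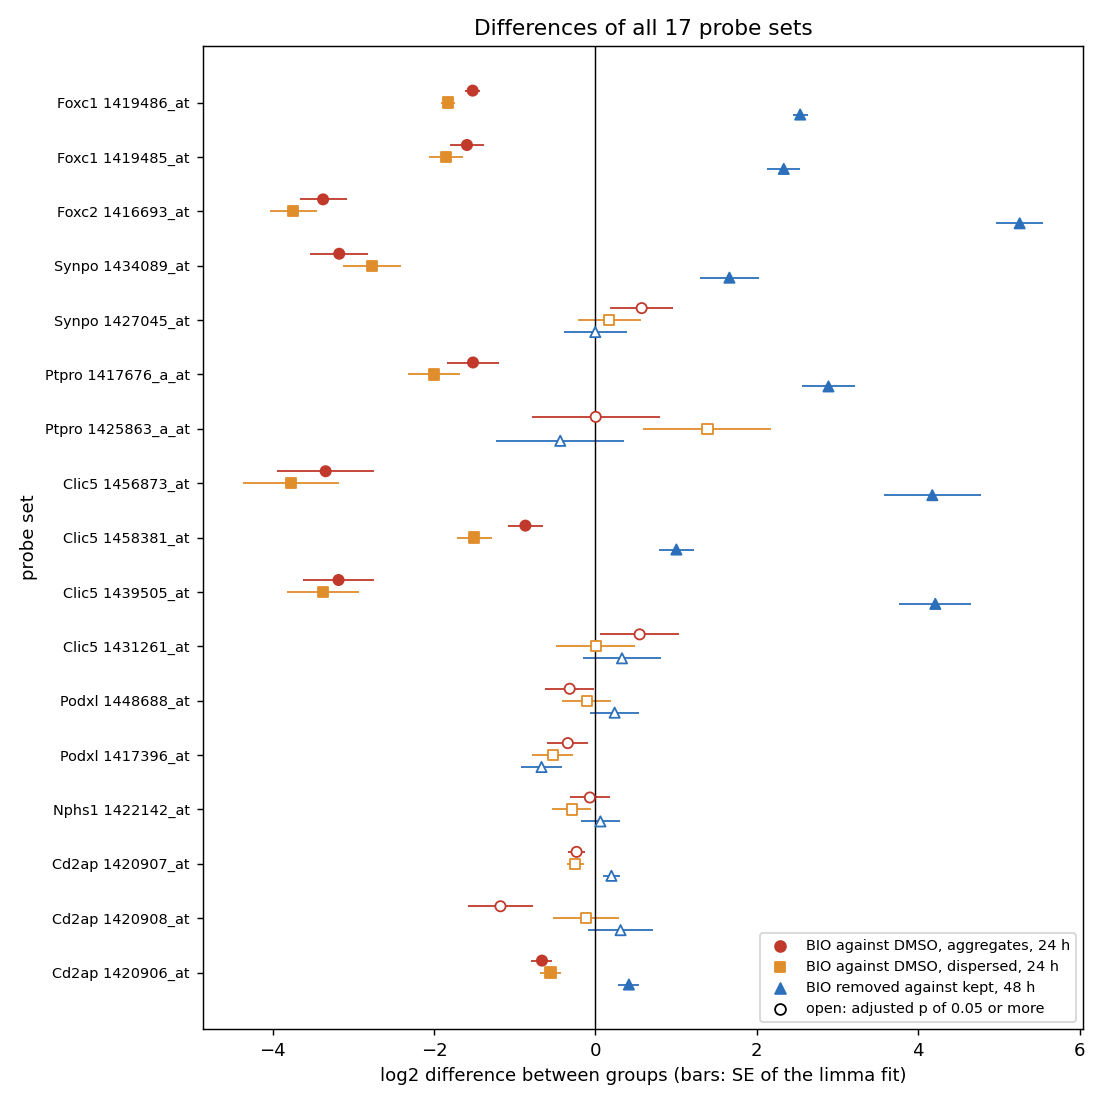
Log2 difference (x axis, bars show the SE of the limma fit, n = 3 arrays per group) of all 17 probe sets (y axis) for BIO against DMSO in aggregates and in dispersed cells and for BIO removed against kept. Filled symbols passed the test; the probe sets of Foxc1, Foxc2, Clic5 above background and the main ones of Synpo and Ptpro lie left of 0 for BIO and right of 0 for removal, and Podxl, down to -0.67 on 1417396_at for removal, and Nphs1 have open symbols throughout.

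The effect of BIO was compared between aggregates and dispersed cells as an interaction. Of the 17 probe sets, 0 passed with limma in either direction, against 0.244% of all probe sets higher and 0.373% lower. At an unadjusted p under 0.05 there was 1, Foxc1 1419486_at, whose log2 difference was less negative in aggregates by 0.31 (95% interval 0.03 to 0.58, adjusted p = 0.415). Wider intervals were found for the main probe sets of Foxc2 (-0.51 to 1.24), Synpo (-1.49 to 0.68), Ptpro (-0.49 to 1.45) and Clic5 (-1.36 to 2.23). Those of Cd2ap are not given here. Differences between the formats of up to those limits are compatible with these arrays.

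On the beta-actin 3′ control probe set, the signal moved with BIO in aggregates. It was 2669 to 5410 in BIO aggregates and 7700 to 12586 in DMSO aggregates, 8628 to 9219 in dispersed BIO cells and 11993 to 12313 in dispersed DMSO cells, and 11973 to 12845 with BIO removed and 6344 to 11267 with BIO kept. In each pair of groups the ranges did not overlap. A covariate's slope in this fit comes from the spread within groups and is carried across that gap. With that control as a covariate, the difference for BIO in aggregates was -0.33 ± 0.52 for Ptpro (adjusted p = 0.777), beside -1.52 without it. For Clic5 1456873_at it was -2.93 ± 1.16 (adjusted p = 0.147), beside -3.34. Foxc1 1419485_at (-1.19, adjusted p = 0.0696) and Cd2ap 1420906_at (-0.36, adjusted p = 0.405) also lost their calls. Foxc1 1419486_at, Foxc2, Synpo, Clic5 1439505_at and Clic5 1458381_at kept theirs. In dispersed cells all 9 calls were kept, and for removal all but that of Cd2ap 1420906_at. The part of RNA quality in these differences was not tested.

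Aggregates that had BIO removed were also set against the group in which they began their second day, BIO aggregates at 24 h. Of the 17 probe sets 10 were higher and 0 lower at 48 h, against 10.1% of all probe sets higher and 10.8% lower. The share of higher calls over all probe sets was 48.1%, or 66.6% with the deposited scaling. Foxc2 rose by 3.22 ± 0.29 (log2, adjusted p = 1.40e-06), Clic5 1456873_at by 2.74 ± 0.60 (adjusted p = 0.0041), Ptpro by 2.11 ± 0.32 (adjusted p = 0.000276) and Foxc1 1419486_at by 0.80 ± 0.09 (adjusted p = 1.54e-05). Synpo differed by 0.78 ± 0.36 (adjusted p = 0.146), with no overlap between the groups. Podxl 1448688_at was higher by 1.31 ± 0.31 (adjusted p = 0.0064), at 377, 448 and 325 against 146, 154 and 160. For Cd2ap all 3 probe sets were higher, by 0.44, 1.65 and 0.47 on 1420907_at, 1420908_at and 1420906_at. The beta-actin ranges of these groups did not overlap either. With the beta-actin control as a covariate the differences of Ptpro (0.73, adjusted p = 0.639), Clic5 1456873_at (2.25, adjusted p = 0.482), Clic5 1439505_at (2.44, adjusted p = 0.265), Podxl 1448688_at (1.64, adjusted p = 0.27) and Foxc1 1419485_at (0.74, adjusted p = 0.48) no longer passed. For Cd2ap the values were then 0.59 on 1420907_at (adjusted p = 0.228), 0.12 on 1420906_at (adjusted p = 0.891) and -0.85 on 1420908_at (adjusted p = 0.482), none of which passed, while Clic5 1458381_at, not called without the covariate, passed at 1.60 (adjusted p = 0.0364).

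Where BIO was kept, Foxc1 and Foxc2 went lower still on the second day. Of the 17 probe sets 4 were lower and 2 higher than in BIO aggregates at 24 h, against 8.01% of all probe sets lower and 6.55% higher. The share of higher calls over all probe sets was 45%, or 55.3% with the deposited scaling. Foxc1 1419486_at was lower by -1.73 ± 0.09 (log2, adjusted p = 1.92e-08) and Foxc2 by -2.04 ± 0.29 (adjusted p = 0.00018), with no overlap; in a fit on the 6 arrays compared the adjusted p of Foxc2 was 0.059. The other lower probe sets were Foxc1 1419485_at and Clic5 1439505_at, and for that of Clic5 both groups lay below background. Podxl 1448688_at was higher here too, by 1.07 ± 0.31 (adjusted p = 0.0273), as was Cd2ap 1420908_at by 1.34 ± 0.41 (adjusted p = 0.0369). The Podxl difference was 0.80 without BIO-kept replicate 3 (adjusted p = 0.116), the array with a signal of 467, and its call was lost in each of 5 of the 6 fits that leave out an array. The Cd2ap 1420908_at difference was 0.83 without BIO-kept replicate 1 (adjusted p = 0.181), the array with 1653, and turned to -0.31 with the beta-actin control as a covariate. This comparison and the one before it share the 24 h BIO aggregates.

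A further comparison set the BIO-removed aggregates beside aggregates that had only DMSO for 24 h, which differ from them in time as well. Of the 17 probe sets 3 were lower and 1 higher, against 8.23% of all probe sets lower and 8.10% higher. The share of higher calls over all probe sets was 49.6%, or 38.0% with arrays centred on their medians. Synpo was lower by -2.39 ± 0.36 (log2, adjusted p = 0.00028) and Foxc1 1419486_at by -0.72 ± 0.09 (adjusted p = 5.78e-05). Foxc2 differed by -0.15 with a 95% interval of -0.77 to 0.47, Ptpro by 0.59 (-0.10 to 1.28) and Clic5 1456873_at by -0.60 (-1.87 to 0.66). Podxl was called in both directions, 0.99 ± 0.31 on 1448688_at (adjusted p = 0.0369) and -0.86 ± 0.25 on 1417396_at (adjusted p = 0.0287), and these calls were lost in 6 and 4 of the 6 fits that leave out an array, in that order of probe sets. So Foxc2, Ptpro and Clic5 overlapped the DMSO aggregates, and Synpo and Foxc1 1419486_at stayed below them.

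Culture in DMSO moved the members apart. Against fresh cells, Synpo and Clic5 were higher, Ptpro was lower, and the Foxc genes and Cd2ap were not called. In DMSO aggregates 5 of 17 probe sets were higher and 1 lower than in fresh cells, against 13.7% and 13.5% of all probe sets, and in dispersed DMSO cells 4 were higher and 2 lower, against 11.5% and 11.9%. Synpo differed by 2.05 ± 0.36 (log2, adjusted p = 0.00051) in aggregates and 1.32 ± 0.36 (adjusted p = 0.0133) in dispersed cells. For Clic5 1456873_at the differences were 2.39 ± 0.60 (adjusted p = 0.00678) and 2.97 ± 0.60 (adjusted p = 0.00147). Ptpro differed by -1.08 ± 0.32 in aggregates (adjusted p = 0.0204) and by -2.56 ± 0.32 in dispersed cells (adjusted p = 1.97e-05). Leaving out DMSO aggregate replicate 2, DMSO aggregate replicate 3 or fresh replicate 3 ended the Ptpro call in aggregates, with adjusted p-values of 0.0721, 0.0698 and 0.0738, and leaving out fresh replicate 2 ended that of Synpo in dispersed cells (0.0732). With the Gapdh ratio as a covariate the adjusted p in aggregates was 0.0674 for Synpo and 0.256 for Ptpro, and the calls of Clic5 1458381_at (0.54, adjusted p = 0.221) and Clic5 1439505_at (0.92, adjusted p = 0.402) were lost there too. That covariate also ended the call of Synpo in dispersed cells (1.01, adjusted p = 0.119). Foxc2 passed in aggregates with the Gapdh ratio, at 1.27 (adjusted p = 0.0352), and with arrays centred on their medians, at 0.82 (adjusted p = 0.0452). These comparisons share the fresh arrays.

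The Podxl calls between DMSO culture and fresh cells depended on single arrays. On 1448688_at fresh cells gave 290, 219 and 604, against 155, 202 and 188 in dispersed DMSO cells, and the log2 difference of -0.90 (adjusted p = 0.0432) was -0.48 (adjusted p = 0.237) without fresh replicate 3. Its call was also lost without fresh replicate 1 (adjusted p = 0.0515) and without any 1 of the dispersed DMSO arrays (adjusted p = 0.0658 to 0.137). On 1417396_at DMSO aggregates were higher than fresh cells by 0.93 ± 0.25 (adjusted p = 0.0113), the opposite direction to the -0.81 of 1448688_at (adjusted p = 0.0594), and that call was lost without fresh replicate 1 (0.77, adjusted p = 0.0525).

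With BIO 7 of the 8 genes had a probe set below fresh cells in aggregates and 5 in dispersed cells. In BIO aggregates 10 of 17 probe sets were lower and 0 higher than in fresh cells, against 13.4% of all probe sets lower and 15.8% higher, where the share of higher calls was 54.2%, or 37.2% with the deposited scaling. In dispersed BIO cells 6 were lower and 0 higher, against 7.98% and 9.05%. Podxl 1448688_at (-1.13 ± 0.31, adjusted p = 0.0107) and all 3 Cd2ap probe sets were among those lower in aggregates, and Cd2ap 1420908_at turned to 0.33 with the beta-actin control as a covariate. Without fresh replicate 3 the Podxl difference was -0.71 (adjusted p = 0.0572). The call of Cd2ap 1420907_at was lost with arrays centred on their medians (adjusted p = 0.191), in a fit on the 6 arrays compared (adjusted p = 0.137) and without any 1 of the fresh arrays (adjusted p = 0.0529 to 0.125). That of Synpo was lost without fresh replicate 1 or 3 (adjusted p = 0.0888 and 0.0972) and without BIO aggregate replicate 1 or 3 (adjusted p = 0.0553 and 0.0995). For Clic5 1439505_at both groups lay below background. Clic5 1456873_at, called higher in DMSO than in fresh cells, was not called with BIO, at -0.95 ± 0.60 in aggregates (adjusted p = 0.26) and -0.80 ± 0.60 in dispersed cells (adjusted p = 0.44). With BIO removed 2 probe sets were lower and 1 higher than in fresh cells, against 7.93% and 8.48% of all probe sets. The lower pair were those of Foxc1, at -0.86 ± 0.09 on 1419486_at (adjusted p = 5.18e-06) and -0.78 ± 0.21 on 1419485_at (adjusted p = 0.0153), and the higher one was Clic5 1458381_at, at 0.81 ± 0.22 (adjusted p = 0.0163). That Clic5 call was lost without BIO-removed replicate 1 or 2 (adjusted p = 0.0589 and 0.0517). Clic5 1456873_at was higher by 1.79 without being called (adjusted p = 0.0524). It passed with arrays centred on their medians (adjusted p = 0.0462), a filter on dim probe sets (0.0393) and a fit on the 6 arrays compared (0.0314). A robust variance trend (0.0270) and log2(signal + 16) (0.00305) let it pass too.

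Other genes of the podocyte were described from a list of 34 with a probe set named here, each represented by 1 probe set, the brightest on average, and adjusted over 18193 genes. With BIO in aggregates 21 were lower and 7 higher, against 12.5% of all genes lower and 17.5% higher, with a median log2 difference of -0.69 beside 0.09 over all genes. In dispersed cells 20 were lower and 5 higher, against 13.4% and 15.3%, with a median of -0.62 beside 0.02. Removal of BIO left 11 higher and 6 lower, against 9.29% and 11.1%, with a median of 0.21 beside -0.06. The interaction between BIO and format was called for 0 higher and 3 lower, against 0.726% and 0.841% of all genes.

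By role, basement membrane components and their receptors fell with BIO in 9 of 10 cases in aggregates (median log2 difference -1.38), and 8 of 10 fell and 1, the collagen IV chain Col4a5, rose in dispersed cells. Itga3, the integrin subunit that binds laminin under podocytes, was -2.06 ± 0.17 in aggregates (adjusted p = 1.10e-07) and -2.03 ± 0.17 in dispersed cells (adjusted p = 1.09e-07). Col4a4, a collagen IV chain of the mature glomerular basement membrane, was -2.00 ± 0.42 in dispersed cells (adjusted p = 0.00163). After removal 4 of the 10 were higher and 1 lower, Lama5, the laminin chain of that membrane, at -0.58 ± 0.17 (adjusted p = 0.0225).

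Actin and foot process genes fell in 7 of 9 cases and rose in 1 in both formats, and 3 were higher and 1 lower after removal. Nes (nestin, an intermediate filament of podocytes) was -2.95 ± 0.30 in aggregates (adjusted p = 1.28e-06), -2.35 ± 0.30 in dispersed cells (adjusted p = 1.38e-05) and 1.35 ± 0.30 after removal (adjusted p = 0.0035). Arhgap24, a Rac-inactivating protein of podocytes, was the gene that rose in dispersed cells, at 0.58 ± 0.13 (adjusted p = 0.00227), and Ddn (dendrin), which binds nephrin, the one that rose in aggregates, at 0.53 ± 0.17 (adjusted p = 0.028). Ezr (ezrin) was lower after removal, at -0.72 ± 0.08 (adjusted p = 6.25e-06).

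Among 7 membrane and slit diaphragm genes 3 fell in each format, 1 (Fat1) rose in aggregates, and 1 was higher and 2 lower after removal. Mme (neprilysin, a peptidase of the podocyte surface) had the largest difference of the list, at -4.04 ± 0.31 in aggregates (adjusted p = 5.60e-08), -4.25 ± 0.31 in dispersed cells (adjusted p = 2.71e-08) and 3.35 ± 0.31 after removal (adjusted p = 7.66e-07). Its mean signal was 122 in BIO aggregates and 2030 in DMSO aggregates, and 771 with BIO removed and 74.9 with BIO kept. Robo2, a guidance receptor that binds nephrin, was lower with BIO removed than kept (-1.92 ± 0.38, adjusted p = 0.00149), where its mean signal with BIO removed, 26.6, was below background.

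The transcription factors did not follow Foxc1 and Foxc2 as a group. Of 4, 3 rose and 1 fell with BIO in aggregates, and 2 rose and 1 fell in dispersed cells. Dach1 rose by 1.96 ± 0.22 in aggregates (adjusted p = 3.55e-06) and 2.71 ± 0.22 in dispersed cells (adjusted p = 7.95e-08), and Lmx1b, required for podocyte differentiation, by 0.98 ± 0.16 (adjusted p = 0.000126) and 1.47 ± 0.16 (adjusted p = 1.88e-06). Wt1, a zinc finger factor of progenitors and podocytes, was -0.84 ± 0.15 in aggregates (adjusted p = 0.000323) and 2.69 ± 0.15 after removal (adjusted p = 2.49e-09). Tcf21 was 1.76 ± 0.13 after removal (adjusted p = 6.61e-08) and 0.45 ± 0.13 in BIO aggregates (adjusted p = 0.0153), so it was higher in both comparisons.

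Of 4 secreted and cell cycle genes, 2 rose and 1 fell with BIO in aggregates, 1 rose and 1 fell in dispersed cells, and 1 was higher and 1 lower after removal. Cdkn1c, the cell cycle inhibitor made by mature podocytes, was -2.28 ± 0.22 in aggregates (adjusted p = 9.23e-07), and Sema3g, a podocyte semaphorin, was 1.13 ± 0.33 in aggregates (adjusted p = 0.0156) and 1.73 ± 0.33 in dispersed cells (adjusted p = 0.000749). Its relative Sema3a was -0.90 ± 0.21 after removal (adjusted p = 0.00515).

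**Figure D3:**
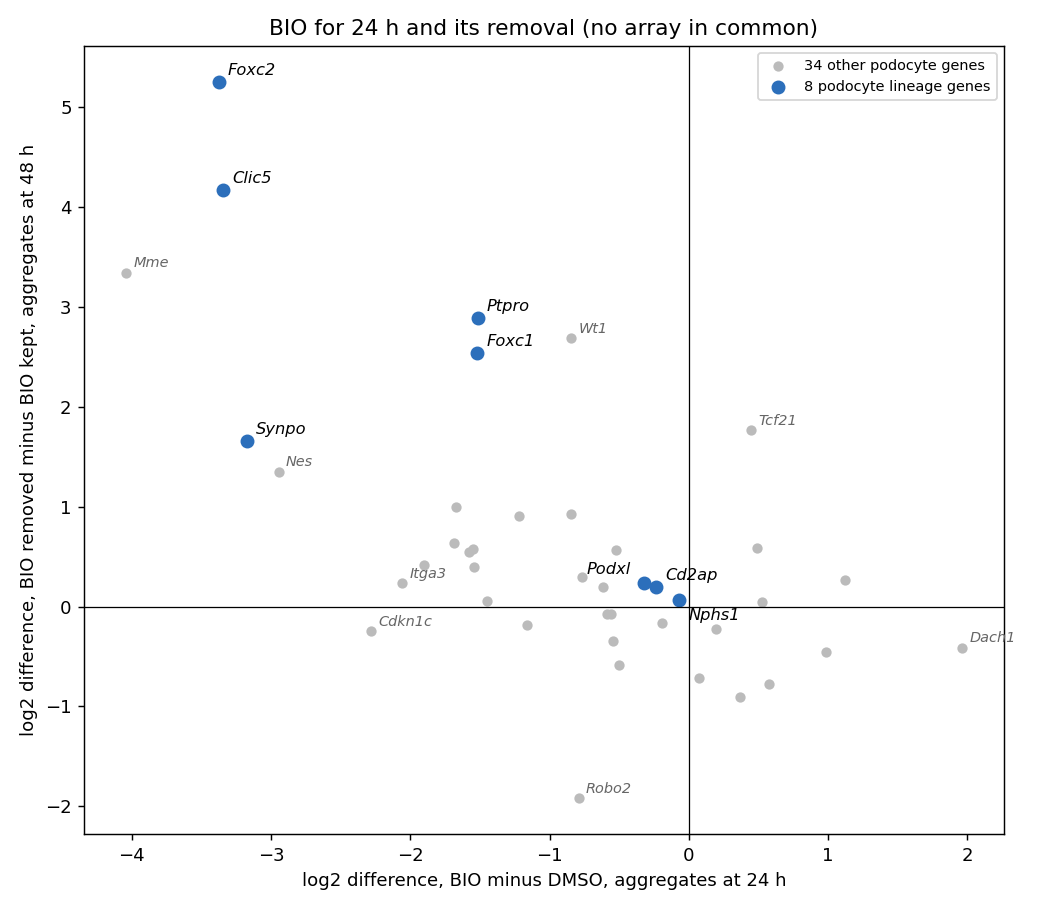
Log2 difference of BIO minus DMSO in aggregates at 24 h (x axis) against that of BIO removed minus BIO kept at 48 h (y axis), 1 point per gene by its representative probe set, with 8 podocyte lineage genes in blue and 34 other podocyte genes in grey; the axes share no array. Foxc1, Foxc2, Synpo, Ptpro and Clic5 lie at upper left with Mme and Nes, Wt1 nearer the middle, and Tcf21 at upper right.

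Most markers of interstitial stroma moved with the same treatments as the Foxc genes. The 10 listed genes, among them Pdgfra, Col1a1 and Col3a1, were all above background in all 7 groups. Their summed signal was 4288 to 4493 in BIO aggregates and 14304 to 15094 in DMSO aggregates, 3827 to 3995 in dispersed BIO cells and 13167 to 14037 in dispersed DMSO cells, and 10599 to 12100 with BIO removed and 2517 to 3244 with BIO kept. Fresh cells had 14602 to 16031. Of the 10 genes 7 were called lower with BIO and 1 higher in aggregates, 6 lower and 2 higher in dispersed cells, and 7 higher and 1 lower after removal. The part of these cells or transcripts in the differences of Foxc1, Foxc2, Synpo, Ptpro and Clic5 was not tested.

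The other lists differed among themselves, and in several of them most genes were not called with BIO in aggregates. The 8 pretubular aggregate and renal vesicle markers, of which 6 or 7 were above background, summed to 14881 to 17345 in BIO aggregates and 6661 to 8791 in DMSO aggregates, and to 21330 to 25854 with BIO removed and 13705 to 15387 with BIO kept. Of these 8 genes 6 were called higher and 1 lower with BIO in aggregates, and 4 higher and 0 lower after removal. The 8 nephron progenitor markers, of which 5 lay above background in BIO aggregates and 7 in DMSO aggregates, summed to 12406 to 12740 in BIO aggregates and 10720 to 11490 in DMSO aggregates, and 31096 to 31848 in fresh cells. Although the sum was higher with BIO, 5 of the 8 genes were called lower and 3 higher there, with a median log2 difference of -1.06 beside 0.09 over all genes. Endothelial markers, 8 to 9 of 11 above background, summed to 1200 to 1607 in BIO aggregates and 927 to 1229 in DMSO aggregates. These ranges overlapped, and 10 of the 11 genes were not called there. For removal the endothelial sums did not overlap, at 1127 to 1443 with BIO removed and 1531 to 1938 with BIO kept. After removal 3 of the 11 genes were called lower and 0 higher. Leukocyte markers, 3 to 6 of 7 above background, summed to 752 to 957 in BIO aggregates and 1196 to 1289 in DMSO aggregates, and 508 to 616 in dispersed BIO cells and 1063 to 1260 in dispersed DMSO cells. Of these 7 genes 1 was called lower with BIO and 1 higher in aggregates (median log2 difference -0.19), and 3 were lower and 0 higher in dispersed cells. Ureteric markers, 6 to 8 of 8 above background, summed to 1145 to 1393 in BIO aggregates and 1011 to 1166 in DMSO aggregates, and proximal tubule markers, 4 to 6 of 6, to 469 to 668 in BIO aggregates and 624 to 766 in DMSO aggregates. For both lists the ranges overlapped, and 6 of the 8 ureteric and 5 of the 6 proximal tubule genes were not called. The part of any of these lists in the members' results was not tested.

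**Figure D4:**
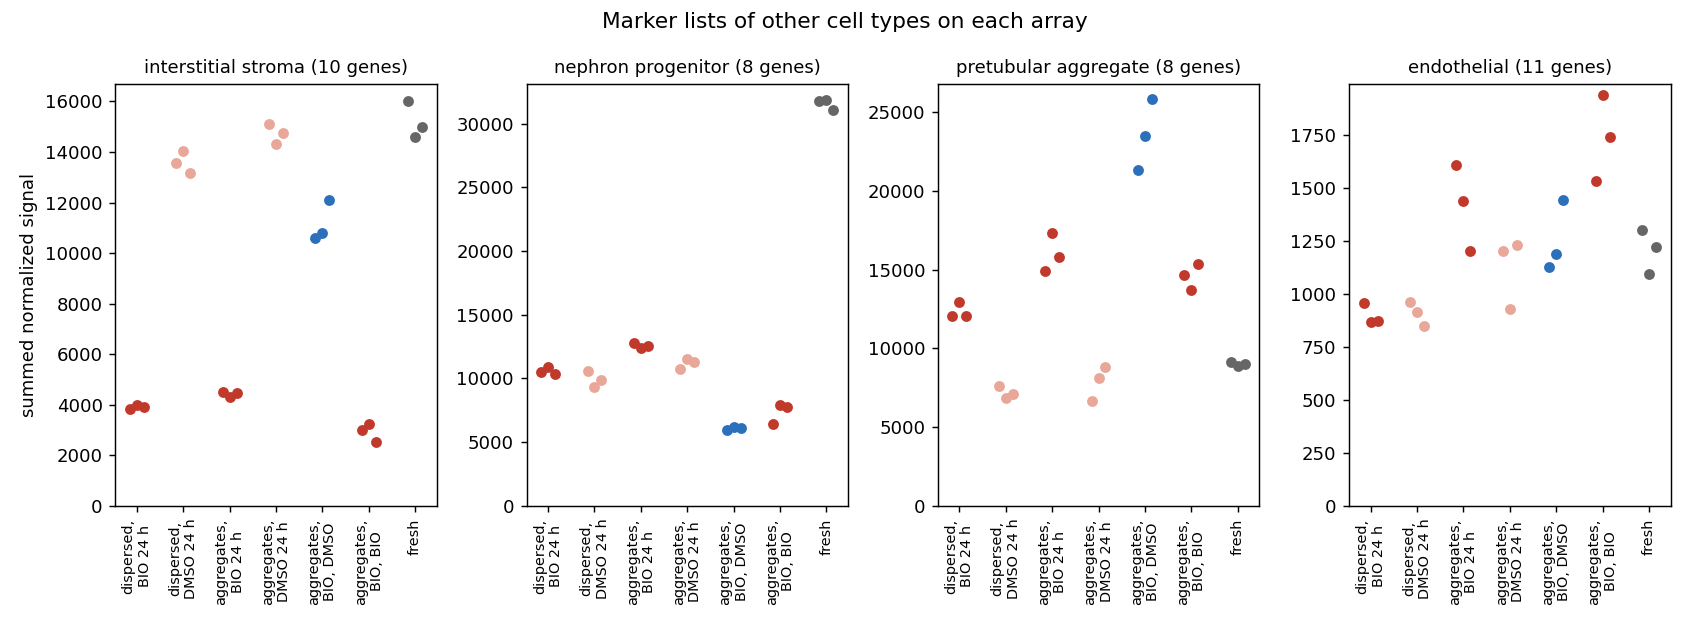
Summed normalized signal (y axis from 0) of 4 marker lists on each array, with groups along the x axis, 1 point per array and the same colours as in the plot of the 8 genes. The stromal sum is low wherever the culture ended in BIO, between 2517 and 4493, and at 10599 or more elsewhere, whereas the pretubular sum is highest with BIO removed.

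The genes whose pattern was most like each member were found by Pearson's r over the 21 arrays among 14265 genes above background, as a description of arrays that fall into 7 groups. For Foxc1 they were Zadh2 (0.969), Col3a1 (0.969) and Alcam (0.966), and for Foxc2 Col3a1 (0.970), Ssbp2 (0.966) and Dmd (0.965). Col3a1 is a collagen of mesenchyme that belongs to the stromal list. For Synpo they were Ddah1 (0.956), Hpgd (0.952) and Nek7 (0.940), for Clic5 Pdgfd (0.949), Fzd4 (0.937) and Itga1 (0.936), and for Ptpro Prr5l (0.914), Frmd4b (0.910) and Col1a2 (0.907). The likeness was lower for the genes whose main probe set was not called for BIO against DMSO. The closest were Pacsin3 at 0.831 for Podxl, Trio at 0.850 for Cd2ap and B3gnt9 at 0.713 for Nphs1.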

How the data were processed

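Values were the deposited signal intensities of 45101 probe sets on 21 arrays, linear between 0.1 and 18025, from RNA amplified in 2 rounds, per the labels. What software and scaling lie behind them is not stated in the sources used here. Array medians were 87.2 to 106. Quantile normalization and log2(value + 1) followed. Probe sets were named through the platform table and RefSeq: 34945 had one symbol, 932 several, 9160 none, and 64 were controls. Differences were fitted with limma (3.58.1, R 4.3.3) on all 21 arrays jointly, each group having its own mean, with residual degrees of freedom of 14 and prior ones of 1.68, and adjusted by Benjamini-Hochberg over 45037 probe sets, threshold 0.05. The fit was tested on simulated data. The 3 arrays per group limit the precision. Where 1 group's mean lay below background, its arrays below background were raised to it and the fold is given as at least that large; where both did, no fold is given.

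The members, gene lists, tests and rules were chosen with earlier results of these data known. Every member probe set is reported. The probe set with the highest mean represents its gene, the 3 genes with the highest r are named as most like it, and the called genes of the wider list with the largest differences are named, at most 4 per direction and comparison. Some listed genes are not reported here. Col4a5 and Arhgap24 are also named for their interaction. Alternatives were the deposited scaling, median centring, a filter on dim probe sets, 1 probe set or the mean per gene, only the arrays compared, the replicate number as a block, a variance trend with a robust prior, log2(value + 16), the beta-actin or Gapdh controls as covariates, a 2-fold minimum and leaving out each array. Python 3.11.15 with matplotlib 3.10.9 drew the figures.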

Additional observations from a re-analysis of the deposited data

Results flagged for a closer look

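For 3 genes of the wider podocyte list the effect of BIO differed between aggregates and dispersed cells by the interaction term of the limma fit, adjusted over 18193 genes. Cdkn1c had an interaction of -1.65 on the log2 scale, with BIO against DMSO at -2.28 in aggregates and -0.63 in dispersed cells. Arhgap24 had -1.13, with -0.54 in aggregates and 0.58 in dispersed cells. Col4a5, a collagen IV chain, had -0.47, with -0.19 in aggregates (adjusted p = 0.0621) and 0.28 in dispersed cells (adjusted p = 0.00908). The beta-actin 3′ control signal was 2669 to 5410 in BIO aggregates and 7700 to 12586 in DMSO aggregates, 8628 to 9219 in dispersed BIO cells and 11993 to 12313 in dispersed DMSO cells, and its part in these differences was not tested.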

How the results depend on the processing

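The number of the 8 genes called was 6 for BIO in aggregates, for BIO in dispersed cells and for removal, and 0 for the interaction, and each stayed within 1.5 times that number under the alternatives run, never below 4 for the first 3. A gene counted if any of its probe sets passed, so genes with several had more chances. With 1 probe set per gene, 17.5% of all genes were higher and 12.5% lower for BIO in aggregates. The shares were 15.3% and 13.4% in dispersed cells, 9.29% and 11.1% for removal, and 0.726% and 0.841% for the interaction. In the other comparisons the number of the 8 genes called moved further as follows, and the cause was not tested unless the alternative uses fewer arrays or averages probe sets. For BIO kept against BIO at 24 h, 5 genes became 3 with 1 probe set per gene, 1 with only the arrays compared, 3 with the beta-actin control as a covariate, 2 with the Gapdh ratio, and 2 to 5 when an array was left out. For BIO removed against BIO at 24 h, 6 became 3 with the beta-actin control. Against fresh cells, DMSO aggregates had 4 genes but 2 with the mean of probe sets and 2 with the Gapdh ratio, dispersed DMSO cells had 4 but 2 with the Gapdh ratio, BIO aggregates had 7 but 4 with the mean of probe sets and 3 with the beta-actin control, dispersed BIO cells had 5 but 3 with the mean of probe sets and 3 to 5 when an array was left out, and BIO-removed aggregates had 2 but 0 with the 2-fold minimum and 1 to 2 when an array was left out. BIO removed against DMSO at 24 h had 3 genes but 1 with the 2-fold minimum. Of all genes, 8.05% were higher and 12.8% lower for BIO kept against BIO at 24 h. For BIO removed these shares were 8.66% and 16.2% against BIO at 24 h, and 9.27% and 12.4% against DMSO. Against fresh cells they were 18.4% and 14.5% for DMSO aggregates and 15% and 18.3% for dispersed DMSO cells. For BIO aggregates they were 21.9% and 11.8%, for dispersed BIO cells 12.7% and 13.3%, and for BIO-removed aggregates 13.2% and 12.1%. No pairing by replicate number was seen in the deviations from group means. The median r was -0.02 for same-numbered arrays (over 0.1 in 8 of 63 pairs) and 0.01 for different numbers (33 of 126). Array-level noise may hide a shared sort or litter, so pairing is not excluded. With the replicate number as a block 6 genes were called for BIO in aggregates, 75 member calls were kept, 3 lost and 1 gained. With the deposited scaling the median difference over all probe sets shifted by 0.14 for BIO removed against BIO at 24 h, by -0.16 for BIO aggregates against fresh cells and by -0.10 for DMSO aggregates against fresh cells. Probe sets near background, those of Nphs1 among them, limit what could be detected.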
